A study of Mus musculus with 8 samples.

Results

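Gdf15, a stress-induced secreted cytokine, and 9 genes of the integrated stress response were followed in bulk RNA-seq of mouse airway cells: Nupr1, Atf4, Ddit3, Trib3, Chac1, Asns, Psat1, Phgdh and Sesn2. They were chosen by name, as the rows of the deposited count table that map to these symbols, and are 10 of its 55401 gene identifiers. These genes and the gene lists used below were chosen with earlier results of these data known. Their shares beside those of all genes are therefore a description and carry no test. All 10 passed the filter on low counts. The groups were 4 libraries labelled mutant (genotype Scgb1a1cre; Cdh1F/F) and 4 control libraries (Scgb1a1cre; Cdh1F/+), all taken 10 days after tamoxifen. Both groups therefore carried the Cre and at least 1 floxed allele of Cdh1, the E-cadherin gene, and both received tamoxifen. Scgb1a1, whose promoter drives the Cre, marks club cells, the secretory cells of small airways, so recombination is directed to that cell type while the libraries hold RNA of others as well. The series text mentions an EPCAM selection and a sort on GFP, but the labels name neither a reporter allele nor the sorted fraction of a library, and ages and strain are not given in them. The question posed was which genes change in airway cells after loss of Cdh1 in club cells. No label says whether libraries of a group are separate animals, and the spread behind each p-value may be technical in part.

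The integrated stress response joins several stress signals at one step. The kinases PERK, GCN2, PKR and HRI each phosphorylate the translation factor eIF2, which lowers protein synthesis as a whole while ribosomes translate more of the mRNA of the transcription factor ATF4. ATF4 is thus controlled largely at translation, and its mRNA need not follow its protein. ATF4 and its target CHOP (encoded by Ddit3) turn on genes of amino acid synthesis and uptake, redox balance and cell death, and GDF15 is released by stressed cells, also under control of p53 and other factors. GDF15 acts on the receptor GFRAL of the hindbrain, with RET as co-receptor, where it lowers food intake.

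ATF4 binds, with C/EBP partners, a composite element in many of these genes, searched here as TGATGNAA on both strands of the promoter window from 250 bases before to 50 bases after each start. The windows are from RefSeq on build GRCm38.p6, and all 10 genes matched. The letters occurred in the windows of 4 of the 10 genes, Nupr1, Asns, Chac1 and Trib3, against 4.51% of 27025 mouse genes. Among these 4 genes the letters stand in 1 that rose, Nupr1, and in 3 that did not. For this reason their windows are shown with that of Gdf15, which lacked the letters (the more upstream of its 2 windows is given). Each reads 5′ to 3′ along the gene, with a match in capitals. A match on the opposite strand shows as its complement read backwards.
Nupr1, chr7:126625421-126625720, minus strand: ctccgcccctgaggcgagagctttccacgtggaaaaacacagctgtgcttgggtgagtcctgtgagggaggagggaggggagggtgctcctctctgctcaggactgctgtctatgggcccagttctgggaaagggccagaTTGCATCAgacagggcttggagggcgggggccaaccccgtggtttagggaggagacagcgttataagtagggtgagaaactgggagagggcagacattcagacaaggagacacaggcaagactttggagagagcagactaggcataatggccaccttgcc
Asns, chr6:7693160-7693459, minus strand: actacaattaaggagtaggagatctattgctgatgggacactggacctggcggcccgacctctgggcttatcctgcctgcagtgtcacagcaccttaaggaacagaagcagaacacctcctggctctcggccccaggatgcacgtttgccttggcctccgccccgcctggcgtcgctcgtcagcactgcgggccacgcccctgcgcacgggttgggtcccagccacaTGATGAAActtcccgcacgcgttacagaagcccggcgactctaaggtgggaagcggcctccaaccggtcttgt
Chac1, chr2:119350992-119351291, plus strand: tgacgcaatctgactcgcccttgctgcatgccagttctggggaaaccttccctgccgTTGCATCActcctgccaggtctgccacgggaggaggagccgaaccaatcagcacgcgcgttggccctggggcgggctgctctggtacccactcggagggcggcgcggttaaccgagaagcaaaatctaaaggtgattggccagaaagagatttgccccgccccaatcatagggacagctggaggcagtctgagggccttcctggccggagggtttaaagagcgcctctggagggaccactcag
Trib3, chr2:152344011-152344310, minus strand: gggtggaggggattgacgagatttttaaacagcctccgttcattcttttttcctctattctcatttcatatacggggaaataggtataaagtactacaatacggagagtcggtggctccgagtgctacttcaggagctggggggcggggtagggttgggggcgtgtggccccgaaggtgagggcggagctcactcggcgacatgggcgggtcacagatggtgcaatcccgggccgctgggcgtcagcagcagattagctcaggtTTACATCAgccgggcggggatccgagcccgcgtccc
Gdf15, chr8:70632407-70632706, minus strand: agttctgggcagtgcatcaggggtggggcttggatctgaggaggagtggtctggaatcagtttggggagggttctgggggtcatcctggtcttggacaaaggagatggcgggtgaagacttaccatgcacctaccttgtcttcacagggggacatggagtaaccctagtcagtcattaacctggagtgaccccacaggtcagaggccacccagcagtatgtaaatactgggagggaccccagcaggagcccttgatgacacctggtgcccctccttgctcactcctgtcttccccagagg
Measured from the start site to the first base of the match, the positions were -110 in Nupr1, -23 in Asns, -193 in Chac1 and 15 in Trib3. The Nupr1 window and the Psat1 windows lie well inside the span of the counted gene, at internal starts. Starts further upstream in these genes were not searched. The match read TGATGCAA in Nupr1 and in Chac1, TGATGAAA in Asns and TGATGTAA in Trib3, on the strand of the gene in Asns and on the opposite strand in the other three. Of the 3 genes that rose, described below, 1 had a match, and of the 7 that were not called, 3 had one. A match is a run of letters in a window and was not tested as a binding site.

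Total counts per library ran from 15111663 to 21673654, and 3 counts, the limit that a count of 0 allows, equalled 0.138 to 0.199 CPM (counts scaled to a common library total), counting error only. Cdh1 itself stood at 395.9 to 409.8 CPM in mutant-labelled libraries and 321.8 to 428.4 CPM in controls. Counts summed over all exons give no check of a floxed part, and the first group is called mutant-labelled throughout. Although the labels call the samples airway cells, 7 alveolar type II markers summed to 24350 to 30550 CPM in mutant-labelled libraries and 22210 to 31830 CPM in controls, and 8 endothelial markers to 3453 to 3874 CPM in mutant-labelled libraries and 4269 to 5452 CPM in controls. The first principal component held 48.8% of the variance: the mutant-labelled libraries lay between -31.6 and -24.5 on it, and controls 1 to 4 at 4.1, 46.5, 53.7 and 9.8. Values below are CPM scaled with TMM, and p-values come from the quasi-likelihood test of edgeR, adjusted over 16964 tested genes after Benjamini and Hochberg. A gene was called, and is said to have risen or fallen, at an adjusted p under 0.05.

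In mutant-labelled libraries 3 of the 10 genes rose, namely Gdf15 (3.67-fold), Nupr1 (2.52-fold) and Psat1 (1.58-fold), and 0 fell. Among all tested genes 5.45% were higher and 2.36% lower (7.81% in all). At an unadjusted p under 0.05, 4 of the 10 were higher and 1 lower, against 25.2% of all tested genes in either direction. DESeq2 and limma-voom each called 3 of the 10 higher and 0 lower. Over all genes DESeq2 called 1336 higher and 939 lower, and limma-voom 986 higher and 375 lower. The median log2 fold change was 0.27 over the 10 genes and -0.006 over all tested genes. The mRNA of Atf4, of Ddit3 and of the classical CHOP targets Trib3 and Chac1 was not called. The plot of CPM by library shows the 3 genes that rose beside the 7 that did not.

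**Figure D1:**
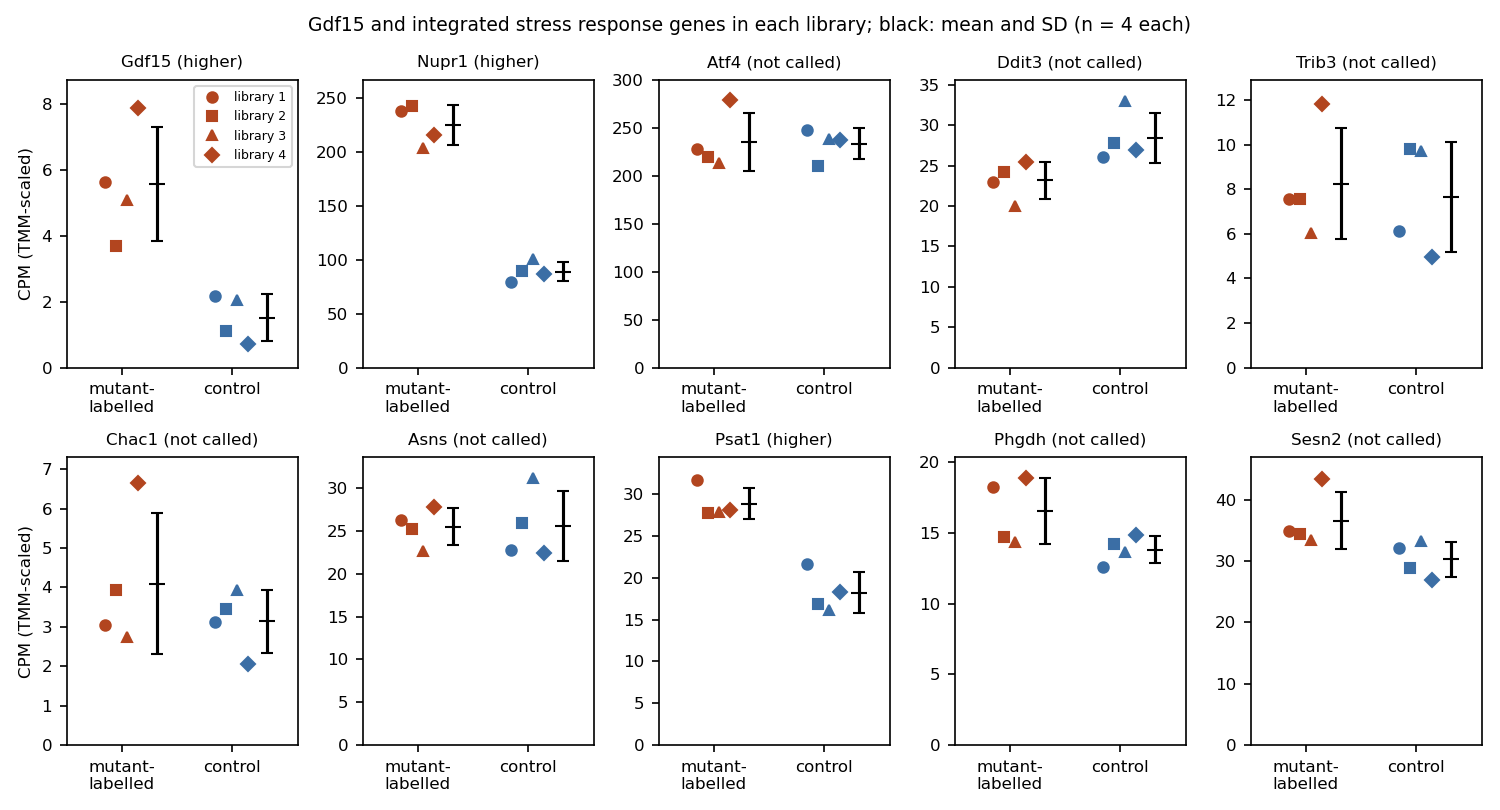
CPM of the 10 genes in each library (points, with the marker giving the library number), mutant-labelled on the left and control on the right of each panel, with mean and SD in black (n = 4 each). Gdf15, Nupr1 and Psat1 lie apart between the groups, whereas Atf4, Trib3, Chac1, Asns and Phgdh overlap.

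Atf4, the central transcription factor of the response, had 228.5, 220.1, 213.7 and 279.5 CPM in mutant-labelled libraries 1 to 4, and 247.7, 210.5, 238.3 and 237.8 CPM in controls 1 to 4. The groups overlapped, and mutant-labelled library 4 was the highest of all 8. The means were 235.5 ± 30.0 CPM in mutant-labelled libraries and 233.6 ± 16.1 CPM in controls (SD, n = 4 each). This gave a log2 fold change of 0.01 ± 0.10 (SE); the 95% interval of the ratio ran from 0.866 to 1.17, and the edgeR adjusted p was 0.959. Atf4 (ENSMUSG00000042406) spans chr15:80255184-80257541 on the plus strand of GRCm38.

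Ddit3, which encodes CHOP, the factor that links prolonged stress to cell death, had 23.0, 24.3, 20.1 and 25.4 CPM in mutant-labelled libraries and 26.1, 27.8, 32.9 and 27.0 CPM in controls. Every mutant-labelled library lay below every control, but the gap was small. Its log2 fold change came to -0.29 ± 0.10 (SE), with a 95% interval of the ratio from 0.696 to 0.958, an unadjusted p of 0.0179 and an edgeR adjusted p of 0.114. Ddit3 was thus not called with all libraries. It was called lower without controls 1 and 4 (edgeR adjusted p = 0.0145), and under the other 18 of 19 settings it was not. Ddit3 (ENSMUSG00000025408, chr10:127290774-127296288, plus strand) shares 3.97% of its exon bases with Mars, on the opposite strand, and 6.13% with a second identifier of the same name that had 0 counts. Reads that fall on several genes went uncounted, so its level may be understated.

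Nupr1, a small nuclear protein induced by many stresses that works with chromatin and transcription factors, showed the clearest separation. Its values were 237.7, 242.0, 202.9 and 215.0 CPM in mutant-labelled libraries and 79.1, 89.8, 100.4 and 86.5 CPM in controls. Even the lowest mutant-labelled library stood far above the highest control. The means were 224 ± 18.6 CPM in mutant-labelled libraries and 88.9 ± 8.87 CPM in controls (SD, n = 4 each), a log2 fold change of 1.34 ± 0.09 (SE). The edgeR adjusted p was 4.96e-05, and the call held under all 19 other settings. Nupr1 (ENSMUSG00000030717) spans chr7:126623249-126630861 on the minus strand.

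Gdf15 encodes the secreted cytokine, a distant member of the TGF-beta family. It was counted 98, 68, 91 and 174 times in mutant-labelled libraries, against 45, 16, 35 and 14 times in controls, all above the limit of 3 counts. Scaled for depth, this was 5.64, 3.71, 5.10 and 7.88 CPM in mutant-labelled libraries and 2.17, 1.10, 2.06 and 0.717 CPM in controls. The groups did not overlap, yet both were spread: mutant-labelled library 4 stood at 7.88 CPM and library 2 at 3.71 CPM, while control 4 was the lowest of all 8. The means were 5.58 ± 1.74 CPM in mutant-labelled libraries and 1.51 ± 0.713 CPM in controls (SD, n = 4 each). This gave a log2 fold change of 1.88 ± 0.36 (SE), the 95% interval of the fold ran from 2.12 to 6.37, and the edgeR adjusted p was 0.0119. The log2 fold change stayed between 1.63 and 2.12 over 19 other settings, and the call was lost without controls 2 and 3 (edgeR adjusted p = 0.0557). Gdf15 (ENSMUSG00000038508) lies at chr8:70629393-70632456 on the minus strand.

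Trib3, Chac1 and Sesn2 are targets of ATF4 or CHOP that feed back on signalling and metabolism. Trib3, a pseudokinase that binds ATF4 and AKT, had 7.54, 7.58, 6.05 and 11.8 CPM in mutant-labelled libraries and 6.12, 9.78, 9.70 and 4.97 CPM in controls. Its groups overlapped, with a log2 fold change of 0.12 ± 0.27 (SE) and an edgeR adjusted p of 0.81. Chac1, which breaks down glutathione, had 3.05, 3.93, 2.75 and 6.66 CPM in mutant-labelled libraries and 3.13, 3.44, 3.94 and 2.05 CPM in controls. Apart from the high mutant-labelled library 4 and the low control 4, its libraries lay close together, and the log2 fold change of 0.40 ± 0.31 (SE) had an edgeR adjusted p of 0.453. For both genes the interval of the ratio was wide, with an upper end of 1.65 for Trib3 and 2.12 for Chac1. Sesn2, a leucine sensor that restrains mTORC1, had 34.9, 34.4, 33.4 and 43.4 CPM in mutant-labelled libraries and 32.1, 28.8, 33.2 and 27.0 CPM in controls. The groups just missed each other, since mutant-labelled library 3 stood next to control 3. Its log2 fold change was 0.27 ± 0.11 (SE), with an unadjusted p of 0.028 and an edgeR adjusted p of 0.144.

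The 3 amino acid enzymes differed among themselves. Psat1, the second enzyme of serine synthesis from glucose, had 31.7, 27.8, 27.9 and 28.1 CPM in mutant-labelled libraries and 21.7, 16.8, 16.1 and 18.2 CPM in controls. No library of one group reached the other, and the means were 28.9 ± 1.87 CPM in mutant-labelled libraries and 18.2 ± 2.48 CPM in controls (SD, n = 4 each). This gave a log2 fold change of 0.66 ± 0.10 (SE), the 95% interval of the fold ran from 1.35 to 1.86, and the edgeR adjusted p was 0.00501. This call also held under all 19 other settings. Phgdh, the enzyme just before it in the same pathway, had 18.3, 14.7, 14.3 and 18.8 CPM in mutant-labelled libraries and 12.6, 14.2, 13.6 and 14.9 CPM in controls. Mutant-labelled libraries 1 and 4 were high and the others lay among the controls, and the log2 fold change of 0.26 ± 0.12 (SE) had an edgeR adjusted p of 0.201. Asns, asparagine synthetase and a textbook ATF4 target, had 26.3, 25.2, 22.6 and 27.8 CPM in mutant-labelled libraries and 22.8, 25.9, 31.2 and 22.4 CPM in controls. It overlapped throughout, and its 95% interval of the ratio, from 0.831 to 1.20, spanned no change (edgeR adjusted p = 0.988).

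Groups did not overlap for 5 of the 10 genes (Gdf15, Nupr1, Psat1 and Sesn2 with mutant-labelled libraries above, Ddit3 with them below), against 16.8% of all tested genes. Compared per length, as RPKM (CPM per kilobase of exon), the level of Atf4 was the highest in both groups, at 99.9 ± 12.7 RPKM in mutant-labelled libraries and 99.1 ± 6.81 RPKM in controls. Nupr1 came next at 89.3 ± 7.40 RPKM in mutant-labelled libraries and 35.4 ± 3.53 RPKM in controls. In mutant-labelled libraries the level of Nupr1 thus lay within the spread of that of Atf4, which it did not in controls. Levels of Ddit3, Sesn2 and Asns followed, from 9.32 to 13.5 RPKM in mutant-labelled libraries and 8.71 to 16.6 RPKM in controls, and the ranges of mean ± SD of Sesn2 and Asns overlapped in both groups. Psat1 had 6.78 ± 0.441 RPKM in mutant-labelled libraries and 4.28 ± 0.582 RPKM in controls, and Phgdh had 6.65 ± 0.939 RPKM in mutant-labelled libraries and 5.56 ± 0.389 RPKM in controls. These neighbours thus lay within each other's spread in mutant-labelled libraries but not in controls. Gdf15 was the lowest of the 10 in controls, at 0.816 ± 0.385 RPKM. At 3.01 ± 0.937 RPKM in mutant-labelled libraries it lay between Trib3 (3.88 ± 1.17 RPKM) and Chac1 (2.50 ± 1.09 RPKM), within the spread of both.

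Differences between pairs of these genes inside a library depend little on how libraries are scaled. The 7 pairs computed were picked after the values had been seen and are given as a description. On the log2(CPM + 0.5) scale, Gdf15 minus Atf4 was -5.31 ± 0.28 in mutant-labelled libraries and -6.94 ± 0.51 in controls (SD, n = 4 each), a difference of 1.62 without overlap. Nupr1 minus Atf4 was -0.07 ± 0.23 in mutant-labelled libraries and -1.39 ± 0.20 in controls. Psat1 minus Asns was 0.18 ± 0.13 in mutant-labelled libraries and -0.48 ± 0.38 in controls, again without overlap. By contrast Chac1 minus Atf4 (a difference of 0.29) and Trib3 minus Atf4 (0.11) overlapped, as did Psat1 minus Phgdh (0.41). For Gdf15 minus Ddit3 the difference was 1.92, without overlap. In these libraries Gdf15 and Nupr1 stood higher relative to Atf4, and Psat1 relative to Asns, in the mutant-labelled group. Since Gdf15, Nupr1 and Psat1 were called higher and Atf4 and Asns were not called, this follows from their fold changes and is no separate result.

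Bulk RNA cannot tell more RNA per cell from more cells of a type, and 6 of 14 marker lists had summed levels that did not overlap between the groups. The 8 markers of damaged epithelium, such as Clu and Krt8, summed to 4060 to 4830 CPM in mutant-labelled libraries and 700.3 to 1035 CPM in controls, with 8 of 8 called higher. The 7 goblet markers summed to 1285 to 1850 CPM in mutant-labelled libraries and 274.4 to 482.9 CPM in controls, with 7 of 7 called higher. The 8 ciliated markers summed to 815.2 to 1070 CPM in mutant-labelled libraries and 598 to 781 CPM in controls, with 5 of 8 called higher. Club cell markers went the other way, at 7556 to 9427 CPM in mutant-labelled libraries and 23990 to 26150 CPM in controls, with 6 of 8 called lower. Of the endothelial markers 4 of 8 were called lower, and of 9 macrophage and monocyte markers 4 were called higher, with summed levels of 6193 to 8462 CPM in mutant-labelled libraries and 5843 to 7964 CPM in controls. No marker of these lists was at 0 in all libraries. The part of these cell types in the levels of Gdf15, Nupr1 and Psat1 was not tested.

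The 6 pan-epithelial markers (Epcam, Cdh1, Nkx2-1, Esrp1, Esrp2, Grhl2) summed to 804.9 to 833.3 CPM in mutant-labelled libraries and 637.3 to 749.6 CPM in controls, with 2 of 6 called higher. Each of the 10 genes was therefore also set against the mean of these markers, on the log2(CPM + 0.5) scale. Cdh1, the floxed gene, is among the markers and had their lowest log2 fold change, 0.07, against 0.61 for Epcam. A mean without Cdh1 was not computed. The exact permutation test used (two-sided, 70 arrangements) cannot give a p below 0.0286. These 10 p-values are unadjusted. Relative to the markers Gdf15 was 1.32 higher and Nupr1 1.03 higher in mutant-labelled libraries, without overlap (exact p = 0.0286 each). The difference for Ddit3 was -0.60, also without overlap (exact p = 0.0286). The difference for Psat1 was 0.35 (exact p = 0.114), so that its difference from the markers did not pass the test. The differences for Atf4 (-0.30, exact p = 0.0571), Asns (-0.30, exact p = 0.0857), Trib3 (-0.19, exact p = 0.514), Phgdh (-0.06), Sesn2 (-0.04) and Chac1 (-0.01) also overlapped between groups. With Epcam alone, which rose 1.53-fold, as the yardstick, the differences were 1.01 for Gdf15 (exact p = 0.0571), 0.72 for Nupr1 (exact p = 0.0286), 0.04 for Psat1 (exact p = 0.857), -0.90 for Ddit3 (exact p = 0.0286) and -0.61 for Asns (exact p = 0.0286). The plot of change by gene sets both scales side by side.

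**Figure D2:**
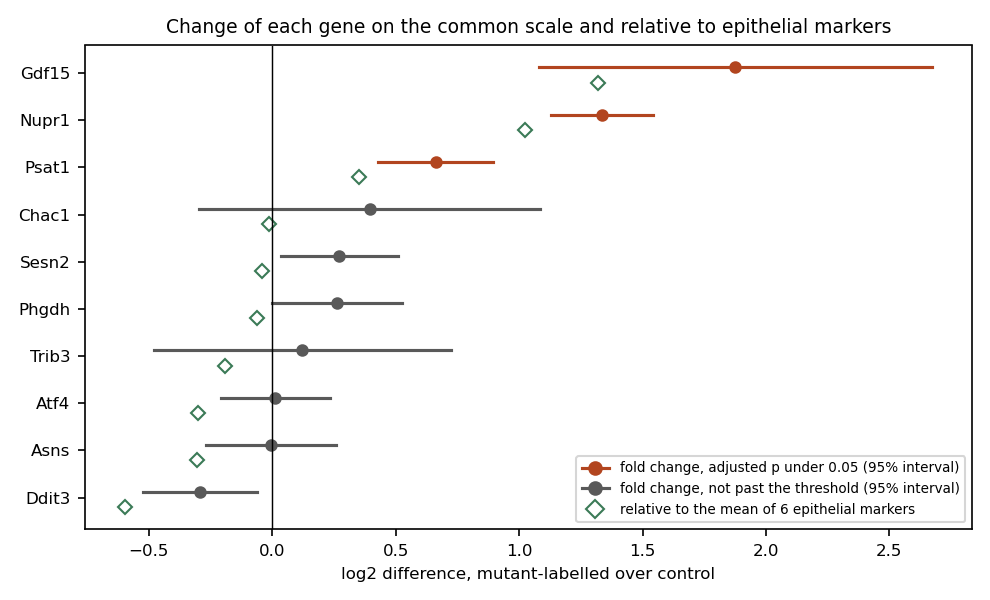
Log2 difference of each gene, mutant-labelled over control: filled circles give the fitted fold change with its 95% interval (red where called), open diamonds the difference relative to the mean of 6 epithelial markers (n = 4 libraries each). Gdf15 and Nupr1 stay near 1 or above on both scales, whereas Psat1 moves to 0.35 and Ddit3 to -0.60.

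Most of the 10 genes had the same highest and lowest library in the mutant-labelled group. Among mutant-labelled libraries, library 4 had the highest level of 8 of the 10 genes (all but Nupr1 and Psat1) and library 3 the lowest of 8. The shares of all tested genes highest or lowest in these libraries were not computed, so these counts have no background. Library 4 stood at 2.05 times the mean of the other mutant-labelled libraries for Chac1, 1.67 times for Trib3 and 1.64 times for Gdf15. Thus 3 of the 10 genes passed a ratio of 1.5 in this library, against 2.66% of all tested genes. Against the others of its group, 0 of 10 genes passed this ratio in mutant-labelled libraries 1, 2 and 3 and in controls 2 and 4, and 1 (Gdf15) in each of controls 1 and 3. Over all tested genes 2.06% to 2.53% passed it in mutant-labelled libraries 1 to 3, and 9.02%, 2.78%, 3.28% and 7.36% in controls 1 to 4. In library 4 the same ratio was passed by 5 of 161 other tested genes of the pathway lists: Aldh1l2, Gadd45a, Slc7a3, Cebpd and Atf3. That share, 3.11%, was near the 2.66% of all tested genes. Library 4 had the largest total count, at 21673654, and the highest macrophage and monocyte sum, at 8462 CPM. Lyz2 alone gave 7282 CPM of that sum. Among mutant-labelled libraries, library 4 was also highest for Cd68, Adgre1, Csf1r and Marco, lowest for Ptprc and Mrc1, and between the others for Chil3 and Cd14. Its alveolar type II sum, 30550 CPM, was the highest of these libraries too. The part of depth and of these cell types in the pattern of library 4 was not tested. In the column headers library 4 carries a number next to that of control 1 and far from those of the other mutant-labelled libraries. What these numbers stand for is not stated. Among controls, control 3 had the highest level of 5 genes and control 4 the lowest of 5. These library patterns were looked for after the values had been seen and carry no test.

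**Figure D3:**
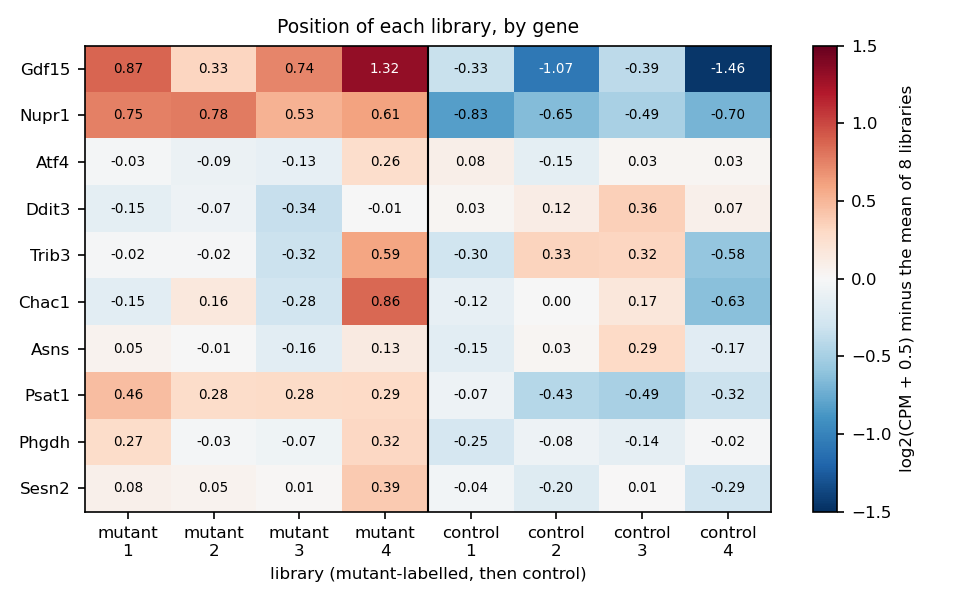
Log2(CPM + 0.5) of each gene in each library minus its mean over the 8 libraries, mutant-labelled libraries on the left and controls on the right. Gdf15, Nupr1 and Psat1 are above their mean in each mutant-labelled library and below it in each control. Mutant-labelled library 4 stands out for Gdf15 (1.32), Chac1 (0.86) and Trib3 (0.59).

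The wider pathway was described with 11 lists holding 161 tested genes outside the 10, of which 6 (3.73%) rose and 2 (1.24%) fell, with a median log2 fold change of 0.01. These shares were below the 5.45% and 2.36% of all tested genes, a difference that was not tested. The unadjusted counts given by list below stand against 25.2% of all tested genes, in either direction. Upstream, 0 of 4 eIF2 kinase genes were called (unadjusted p under 0.05 for 0 higher and 1 lower, 0 by DESeq2 and 0 by limma-voom), and Eif2ak3, which encodes PERK, had 39.9 to 47.6 CPM in mutant-labelled libraries and 35.04 to 52.9 CPM in controls. Of 14 genes of eIF2, eIF2B and their phosphatases 0 were called (unadjusted 0 higher and 1 lower, DESeq2 and limma-voom 0), among them Ppp1r15a, the feedback subunit GADD34, at 56.5 to 71.4 CPM in mutant-labelled libraries and 64.9 to 73.1 CPM in controls. Among 9 tested partner transcription factors Jdp2, a dimer partner that represses AP-1 sites, fell to 36.8 ± 2.19 CPM in mutant-labelled libraries, against 45.1 ± 3.15 CPM in controls (edgeR adjusted p = 0.0459), a call made in 7 of 19 other settings. It was lost when any 1 of the 8 libraries was left out, without control 1 and mutant-labelled library 4, with scaling by library size and with no filter. At an unadjusted p under 0.05, 1 of the 9 was higher and 1 lower. DESeq2 called 1 of the 9 higher and 1 lower, and limma-voom 0 higher and 1 lower. Atf3, a repressor induced by ATF4, had 25.3, 19.0, 19.7 and 32.2 CPM in mutant-labelled libraries and 19.5, 8.403, 10.1 and 25.4 CPM in controls and was not called (edgeR adjusted p = 0.296).

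Among ATF4-linked metabolic genes single members rose. Of 15 serine, glycine and folate-cycle genes 1 rose and 0 fell in edgeR, with a median log2 fold change of 0.15. At an unadjusted p under 0.05, 4 were higher and 1 lower, DESeq2 called 2 higher and 1 lower, and limma-voom 1 higher and 1 lower. The gene that rose was Pycr1, which makes proline in mitochondria, with 5.07, 4.58, 4.26 and 4.44 CPM in mutant-labelled libraries and 2.55, 1.58, 2.29 and 3.07 CPM in controls, a log2 fold change of 0.94 ± 0.20 (SE; edgeR adjusted p = 0.022). This call was made in 13 of 19 other settings and lost without mutant-labelled library 1, 2 or 4, without control 3 alone or with control 2, and when control 1 was dropped together with mutant-labelled library 4. The serine hydroxymethyltransferase gene Shmt1 (edgeR adjusted p = 0.0567) and the transsulfuration gene Cbs (log2 fold change -1.08, edgeR adjusted p = 0.0558) fell short of the threshold. Of 12 amino acid transporter genes 1 rose, Slc7a5, the large neutral amino acid carrier, at 20.7 ± 1.01 CPM in mutant-labelled libraries and 14.1 ± 2.41 CPM in controls (edgeR adjusted p = 0.0292). Its call was lost without any 1 of the mutant-labelled libraries, without control 2 and once the GC trend was removed. At an unadjusted p under 0.05, 1 of the 12 was higher and 0 lower. Slc7a11, the cystine carrier, spanned 4.53 to 5.64 CPM in mutant-labelled libraries and 2.0 to 11.1 CPM in controls, control 1 being the high one. Of 20 aminoacyl-tRNA synthetase genes 0 were called (unadjusted 2 higher and 0 lower, DESeq2 and limma-voom 0).

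Among 19 other tested targets of ATF4 and CHOP 1 rose and 0 fell in edgeR, and the median log2 fold change was -0.11. At an unadjusted p under 0.05, 2 were higher and 4 lower, DESeq2 called 1 higher and 2 lower, and limma-voom 1 higher and 0 lower. The gene was Rragd, which encodes a Rag GTPase of the amino acid branch of mTORC1, with 17.1, 17.5, 19.7 and 19.6 CPM in mutant-labelled libraries and 10.3, 12.95, 11.3 and 9.94 CPM in controls. Its groups did not overlap, its log2 fold change of 0.74 ± 0.11 (SE) had an edgeR adjusted p of 0.00377, and it was called under all 19 other settings. Fgf21, another hormone of the response, did not pass the filter, with counts of 1, 0, 1 and 4 in mutant-labelled libraries and 0 in each control. Of 26 genes of endoplasmic reticulum chaperones and the unfolded protein response 1 rose, Syvn1, a ubiquitin ligase of protein degradation there (edgeR adjusted p = 0.0369). Syvn1 had 101.7 to 116.0 CPM in mutant-labelled libraries and 64.8 to 93.1 CPM in controls, and its call was made in 11 of 19 other settings. It was lost without any 1 of the mutant-labelled libraries, without control 2 or 3 and without both of these controls. At an unadjusted p under 0.05, 3 genes of this list were higher and 0 lower. DESeq2 called 2 genes of the list higher and limma-voom 1, and 0 lower each. Hspa5, which encodes the chaperone BiP, had 1015, 1040, 771 and 706 CPM in mutant-labelled libraries and 848, 968, 1001 and 594 CPM in controls (edgeR adjusted p = 0.889). Of 11 mitochondrial stress genes 0 were called (unadjusted 0 higher and 1 lower, DESeq2 and limma-voom 0), and Hspd1, Hspa9 and Lonp1 overlapped between the groups.

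**Figure D4:**
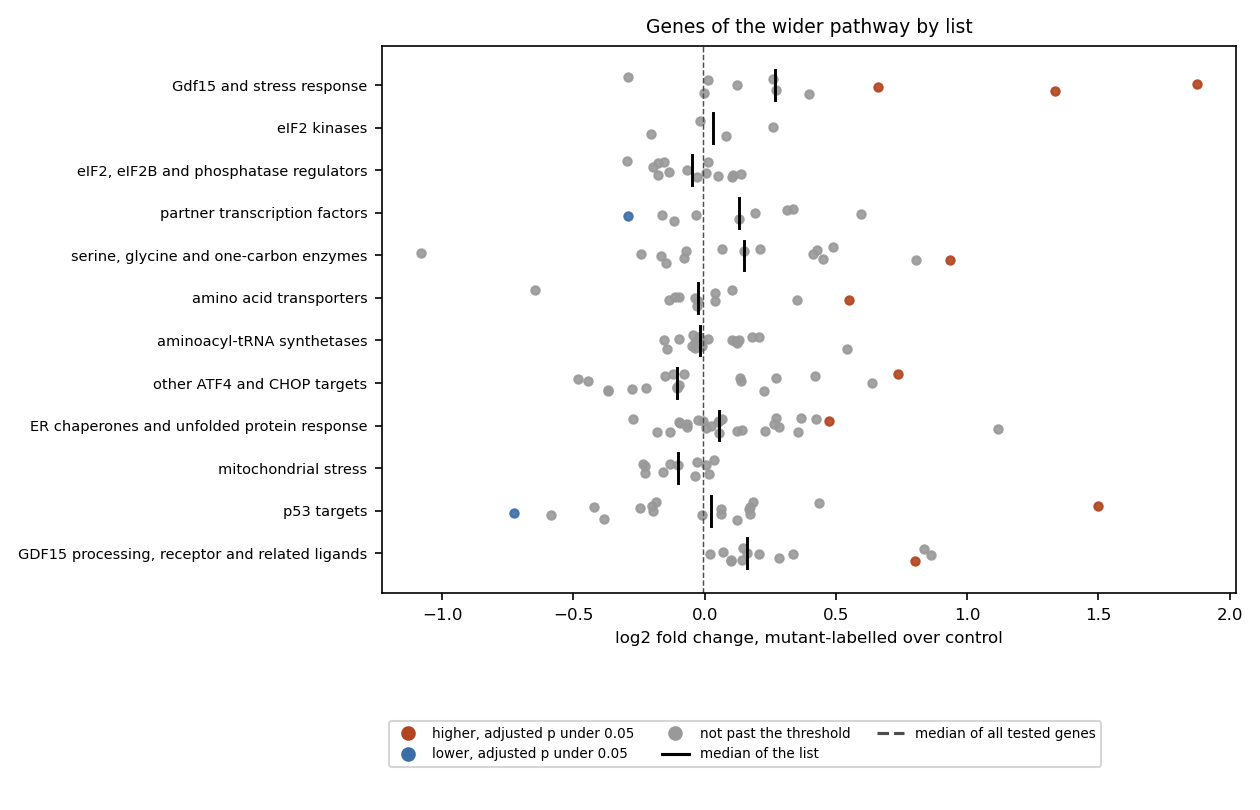
Log2 fold change, mutant-labelled over control, of each tested gene by list (points, red where called higher and blue where called lower), with the median of each list as a black bar and that of all tested genes as a dashed line. The 10 genes in the top row have a median of 0.27, and the medians of the 11 other lists lie between -0.11 and 0.16.

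Because p53 also drives Gdf15, its targets were listed too: of 18, Gtse1 rose and Pmaip1 fell, with a median log2 fold change of 0.03. Gtse1, a p53-binding protein of the dividing cell, had 9.61, 8.89, 10.4 and 9.33 CPM in mutant-labelled libraries and 5.78, 2.75, 2.12 and 2.71 CPM in controls (edgeR adjusted p = 0.0104), and it was called under all 19 other settings. Pmaip1, which encodes the cell death protein NOXA, fell to 14.1 ± 1.91 CPM in mutant-labelled libraries, against 23.3 ± 5.72 CPM in controls (edgeR adjusted p = 0.0446), and was called in 9 of 19 other settings. The call was lost without any 1 of the mutant-labelled libraries, without control 2 or 3 or both, without control 1 and mutant-labelled library 4, with scaling by library size and in limma-voom. At an unadjusted p under 0.05, 3 of the 18 were higher and 4 lower. DESeq2 called 1 of the 18 higher and 2 lower, and limma-voom 1 higher and 0 lower. Cdkn1a, the cell-cycle inhibitor p21 that both p53 and the stress response control, had 207.6, 253.3, 185.5 and 160.7 CPM in mutant-labelled libraries and 126.6, 173.0, 292.6 and 97.0 CPM in controls and was not called (edgeR adjusted p = 0.674). Control 3 alone lay above all mutant-labelled libraries for Cdkn1a.

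On the side of the secreted protein, 1 of 13 tested genes for processing, receptors and related ligands rose and 0 fell, with a median log2 fold change of 0.16. At an unadjusted p under 0.05, 4 of the 13 were higher and 0 lower. DESeq2 called 3 higher and limma-voom 1, and 0 lower each. Mmp14, a membrane metalloprotease, had 136.4, 132.7, 134.5 and 113.3 CPM in mutant-labelled libraries and 101.7, 53.9, 55.3 and 84.9 CPM in controls (edgeR adjusted p = 0.0379), and lost the call without any 1 of the mutant-labelled libraries, without control 2 or 3 and with no filter. Furin, which encodes a convertase that cleaves proproteins of this family, had 154.2 to 171.9 CPM in mutant-labelled libraries and 115.5 to 171.4 CPM in controls (edgeR adjusted p = 0.187). Gfral had 0 counts in all 8 libraries, which allows up to 0.138 to 0.199 CPM. Its co-receptor Ret was present at 15.1 to 18.8 CPM in mutant-labelled libraries and 14.7 to 17.3 CPM in controls (edgeR adjusted p = 0.572).

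Finally, genes were ranked by how closely their profile over the 8 libraries followed that of Gdf15, as the root mean square difference of log2 CPM after centring each gene, among 13115 protein-coding genes with an average log2 CPM of at least 1. The 8 closest were Alkal1, a ligand of ALK and LTK, Rgs16, a regulator of G proteins, Efcab11, Ffar4, a receptor for fatty acids, Il33, an alarmin, Basp1, Kif24, a kinesin, and Adora2b, an adenosine receptor, at distances of 0.43 to 0.54. Since the measure contains the difference between the groups, all 8 were called higher, which is no separate result. Il33, the most abundant of them, stood at 350 CPM on average in mutant-labelled libraries and 105 CPM in controls. Within the stress response Nupr1 was nearest to Gdf15 (0.60), followed by Psat1 (0.78), and the other members lay at 0.88 to 1.19. Nupr1 and Psat1 are the other members that rose, so this order is no separate result either. The 8 genes closest to Atf4, Ubl7, Fbxo42, Scaper, Fth1, Tmem181a, Naaa, Ftl1 and Amhr2, lay within 0.07 and 0 were called, and the nearest member was Sesn2 (0.15). Atf4 was itself not called, so the lack of calls among its neighbours follows from the measure.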

How the data were processed

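RNA-seq was analysed from 8 mouse libraries, 4 labelled mutant and 4 control. The deposited table holds raw counts per gene. Per the file headers, the authors made them with featureCounts 1.6.2 on GENCODE release M25 of GRCm38, ignoring strand and leaving out reads over several genes or places. STAR, Bowtie2 and Cufflinks stand in the submitters' processing notes. The labels give both a stranded and an unstranded kit. Symbols from GENCODE M21 matched 99.53% of identifiers.

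After filterByExpr (minimum count 10, minimum total 15) and TMM scaling, edgeR 4.0.16 (robust quasi-likelihood fit, group only; R 4.3.3) compared the groups, with SEs from the F statistic. The members and lists were chosen with earlier results of these data known. Named genes were the members, up to 4 called genes per list with the lowest adjusted p, the first and called markers of a cell type and the 8 profiles nearest to Gdf15 and to Atf4. Others, such as Hspa5 and Cdkn1a, were picked after their values were seen. No libraries agreed within sampling noise. Alternatives were other scalings and filters, GC correction, DESeq2 1.42.0, limma-voom (limma 3.58.1), a replicate block and left-out libraries.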

Additional observations from a re-analysis of the deposited data

Results flagged for a closer look

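A library far from the other 3 of its group was found in 2 of 20 groups tested (10 genes, both groups), where chance gives about 1 in 20. Psat1 in mutant-labelled library 1, at 31.7 CPM, stood above 27.8 to 28.1 CPM in the other mutant-labelled libraries. Sesn2 in mutant-labelled library 4, at 43.4 CPM, stood above 33.4 to 34.9 CPM in the others.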

How the results depend on the processing

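The 3 higher calls (Gdf15, Nupr1, Psat1) were made under 18 of 19 other settings, and 2 of them without controls 2 and 3. The number of these 10 genes called lower was 1 (Ddit3) without controls 1 and 4 and 0 under the others. Over all genes, leaving out 1 library gave 515 to 1517 higher genes, against 924 with all libraries, and 146 to 1117 lower genes, against 401. The low ends were without mutant-labelled library 1 and the high ends without control 1. Without controls 1 and 4 there were 3750 higher and 3338 lower genes, and without controls 2 and 3 there were 223 lower. Without controls 1 and 4 the list of other ATF4 and CHOP targets had 4 higher and 10 lower genes, and that of GDF15 processing, receptors and ligands 7 higher and 0 lower. In the same setting 5 genes were lower in each of the lists of eIF2 and eIF2B, of endoplasmic reticulum chaperones and of mitochondrial stress. Among p53 targets 6 were lower. Calls thus rose in many lists in this setting, as they did over all genes. DESeq2 called 939 lower genes. Without control 1 and mutant-labelled library 4, a setting chosen after seeing the data, 625 were lower. The cause was not tested.

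Replicate numbers did not pair the libraries: deviations of same-numbered libraries correlated at 0.007, 0.129, -0.123 and 0.134. With a replicate block 865 genes were higher and 371 lower, and 3 and 0 of the 10, while the calls of Jdp2 and Syvn1 were lost. For the least abundant genes, Gdf15 and Chac1, counts as low as 14 and 40 limit the precision.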
